A study of Mus musculus with 24 samples.

Results

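The genes followed here direct cells into lineages other than heart: Myod1, Myog, Myf5, Myf6 and Pax7 of skeletal muscle, Neurog2 of neurons, Sox10 of neural crest and glia, Spi1 of blood, and Hnf4a of liver. They were taken by name, 9 of the 21887 protein-coding genes with a position in the annotation, and each was read over its gene body plus 20 kb on each side, called its window here. The windows were 41.9 to 136.5 kb long, and they covered 545.4 kb in all because those of Myf5 and Myf6 overlapped.

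A master regulator is a transcription factor able to switch on much of the gene programme of a lineage. MyoD, Myf5, MRF4 (the product of Myf6) and myogenin bind the E-box motif and start and complete muscle differentiation, while PAX7 marks the muscle stem cell. MEF2 proteins are not lineage-restricted in the same way: MEF2C works with the MyoD family in skeletal muscle and with GATA4 and TBX5 in the heart, and the Myog promoter is a textbook MEF2 target in muscle cells. Histone H1.0 is a linker histone common in differentiated cells, and H3K9me3 is the histone mark of constitutive heterochromatin.

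The cells were 1 line of mouse embryonic fibroblasts, iMGT-Myh6-eGFP-MEF, in which doxycycline switches on Mef2c, Gata4 and Tbx5 and eGFP reports Myh6, so the MEF2C mapped at day 1 came from cells in which the transgene had been induced. Every day 1 group received 1 µg/mL doxycycline after transfection with siControl, siJunb (against Junb, an AP-1 factor) or siH1f0 (against H1f0, the gene of H1.0), and ground-state cells received neither. CUT&RUN, which releases the DNA around an antibody-bound protein with a tethered nuclease, gave 1 peak list per library. MEF2C was mapped at day 1 with siControl in 2 libraries, with siJunb in 3 and with siH1f0 in 3. For H1.0, and likewise for H3K9me3, there were 2 ground-state libraries and 2 from day 1 siControl cells.

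MEF2C lists held 11731 to 49011 peaks, H1.0 lists 32934 to 722322 and H3K9me3 lists 24219 to 69439. List length differed as much within a group as between groups: the siControl lists for MEF2C held 14928 and 27791 peaks, and the siJunb lists 11731, 49011 and 25790. The lists give coverage and not read depth, so the precision of a value is judged from the spread between lists. A gene without a peak is one where the caller listed none, not one shown to be unbound. The labels name biological replicates but not what was repeated, so the spread behind each p-value may be technical. Expression was not measured in these files, so neither the knockdowns nor the level of any regulator was checked. As a look at the labelled cell type, 10 of 10 fibroblast genes carried a MEF2C peak in the window in at least 1 library, where 22.6% of all protein-coding genes had none, and 6 of 10 (Vim, Thy1, Col1a1, Ddr2, S100a4 and Pdgfra) carried one in all 8 libraries, against 24.4%. This shows where MEF2C lay, says nothing of their RNA and does not check the cell type.

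A pair of promoters shows the contrast in the MEF2C lists. Each is the 250 bases before an annotated start, 5′ to 3′ on the gene's strand, from RefSeq on GRCm38.p6, the assembly of mm10. The Myog promoter lies at chr1:134289754-134290003 on the plus strand. The promoter of Slc39a13, a gene 11.9 kb from Spi1, lies at chr2:91070316-91070565 on the minus strand. Capitals mark letters of the MEF2 consensus without its last letter, a search added after the sequence had been seen.
Myog: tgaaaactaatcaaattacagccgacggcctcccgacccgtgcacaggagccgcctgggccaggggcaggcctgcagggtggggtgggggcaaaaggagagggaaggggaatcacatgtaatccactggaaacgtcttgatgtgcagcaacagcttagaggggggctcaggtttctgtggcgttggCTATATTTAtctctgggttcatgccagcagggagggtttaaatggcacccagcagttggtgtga
Slc39a13: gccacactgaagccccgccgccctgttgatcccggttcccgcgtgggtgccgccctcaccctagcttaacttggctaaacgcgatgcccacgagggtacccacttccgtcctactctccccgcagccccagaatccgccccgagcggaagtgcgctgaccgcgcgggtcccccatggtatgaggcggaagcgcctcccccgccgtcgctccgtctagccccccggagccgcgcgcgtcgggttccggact

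The Myog promoter, with its MEF2-like letters starting 64 bases before the start, was under a MEF2C peak in 0 of 8 libraries and under H1.0 in 1 of 4. Those shortened letters occurred in 7.07% of 32851 promoters of this length, and the full MEF2 consensus, which occurred in 2.92%, was absent from it. The Myog promoter also held 2 matches to the E-box letters CANNTG, found in 66.2% of promoters. The Slc39a13 promoter was under a MEF2C peak in 8 of 8 libraries and under H1.0 in 0 of 4, although it held no match to the MEF2 consensus, to the AP-1 letters TGANTCA (in 6.75% of promoters) or to an E-box. It was rich in G and C (70.4%, against 56.4% for Myog). The overlapping promoter of the lncRNA Gm39874, at chr2:91070101-91070350, was also under a MEF2C peak in 8 of 8 libraries. It was under H1.0 in 2 of 4 and held 2 E-box matches, but no MEF2 or AP-1 match. The merged MEF2C region over both promoters, at chr2:91067408-91072753, was touched by H1.0 in 3 of 4 lists. All motifs were searched on both strands, and a match is a description of letters and not a site.

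The promoter table held 6 starts of 5 of the regulators (Myog, Myf5, Pax7, Neurog2 and 2 starts of Hnf4a), and 0 of these starts lay under a MEF2C peak in any of the 8 libraries. Among 21263 starts of protein-coding genes, 40.5% did in at least 1 library. Apart from the shortened MEF2 letters of Myog, these promoters held no MEF2 or AP-1 match.

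**Figure D1:**
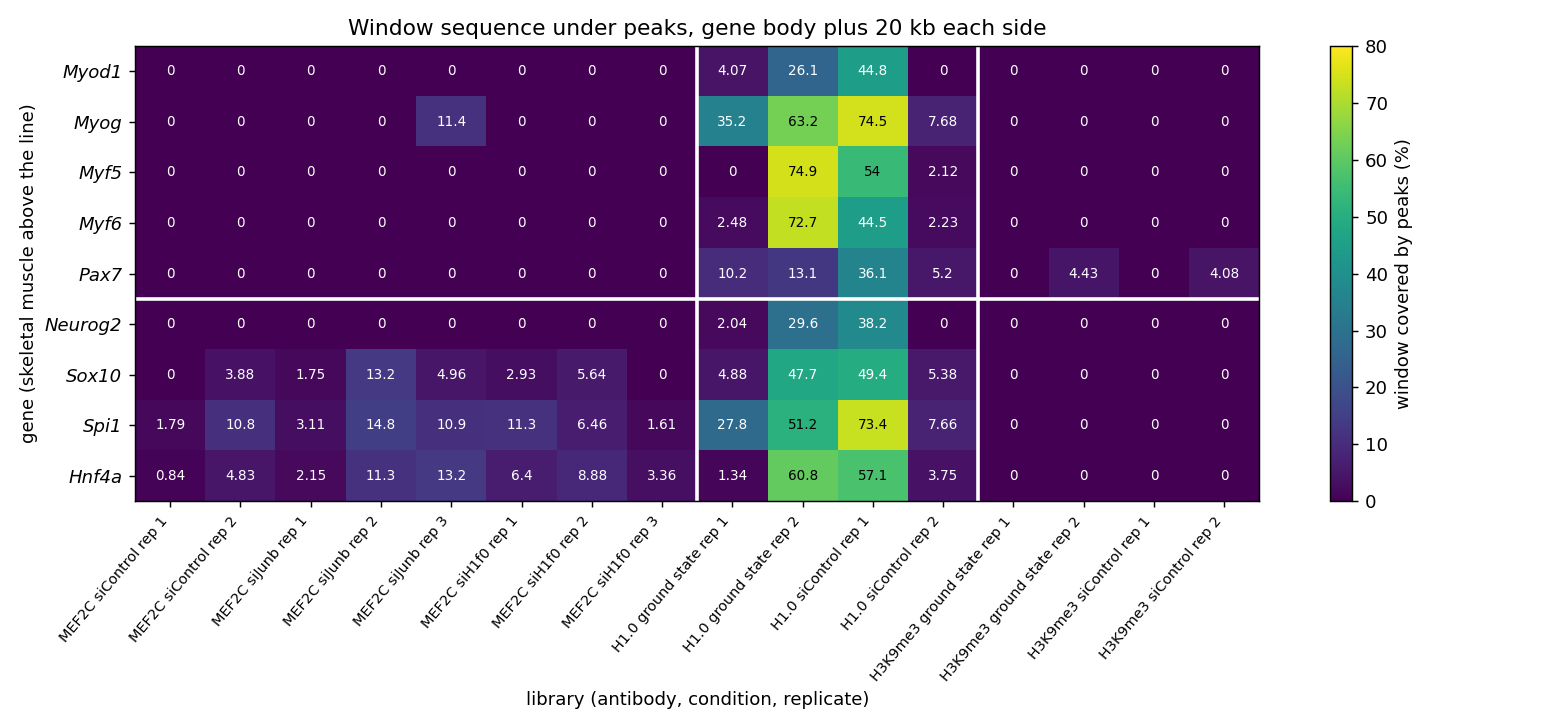
Percent of each gene's window (gene body plus 20 kb on each side) under peaks, for 9 regulators (rows) in 16 libraries (columns), with white lines between antibodies and between gene groups. MEF2C is at 0 in every library for Myod1, Myf5, Myf6, Pax7 and Neurog2, while H1.0 reaches every window in at least 3 of 4 lists and H3K9me3 reaches only that of Pax7.

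MEF2C peaks were nearly missing from the skeletal muscle regulators. No MEF2C library had a peak in the window of Myod1, Myf5, Myf6 or Pax7, and 1 library of 8 had one at Myog. Of all 9 regulators, 5 had no MEF2C peak in any library, against 22.6% of all protein-coding genes, and 6 had one in at most 1 library, against 30.8%. Short windows were empty more often: 36.4% of genes with a window under 50 kb had no MEF2C peak, against 12.7% of those with a window of 70 to 140 kb. Genes with no other protein-coding gene in the window were empty in 40.4% of cases, those with 1 other in 22.8%, and those with 2 or more in 12.8%. The windows of Myod1, Myog, Myf5, Myf6 and Neurog2 were 41.9 to 44.0 kb long, and that of Pax7, with no other protein-coding gene, was 136.5 kb.

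Myod1, which can turn fibroblasts into muscle cells on its own, lay far from MEF2C peaks. The nearest peak was 316 and 207 kb from its body under siControl, 340, 28.5 and 339 kb under siJunb, and 208, 208 and 240 kb under siH1f0. The peak at 28.5 kb, outside the window, came from the longest MEF2C list, siJunb replicate 2; the other 7 distances were 207 kb or more.

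Myf5 and Myf6, neighbours 5.92 kb apart that act early and late in muscle development, shared 1 stretch without MEF2C peaks. From Myf5 the nearest peak was 29.2 and 79.9 kb away under siControl, 47.0, 182 and 356 kb under siJunb, and 312, 137 and 137 kb under siH1f0. The closest peak came from the siControl group and the farthest from siJunb, and the siJunb range overlapped those of both other groups, while the siControl and siH1f0 ranges did not overlap.

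Pax7 had its nearest MEF2C peak 114 and 134 kb away under siControl, 357, 162 and 134 kb under siJunb, and 134, 133 and 135 kb under siH1f0. The distances near 134 kb recurred in all 3 groups.

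Myog, which drives the fusion and terminal differentiation of myoblasts, was covered in siJunb replicate 3 alone, over 11.4% of its window, and at 0% in the other 7 libraries. The coverage came from 2 peaks that lay inside Ppfia4, the neighbouring gene, 9.29 and 12.1 kb from the body of Myog. The first, at chr1:134301837-134304009, stood at the 58.9th percentile of total signal within its list and the second, at chr1:134304607-134307277, at the 54.0th (these scores are the authors', ranked within a list only). In the other libraries the nearest peak to Myog was 39.1 to 113 kb away, so the siJunb libraries held both the smallest and the largest distance. Whether the peaks of that library belong to Myog or to Ppfia4 was not tested.

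The regulators of other lineages were unlike one another. Neurog2, a proneural bHLH factor, had no MEF2C peak in its window in any library, and the nearest one was 47.8 and 78.3 kb away under siControl, 223, 128 and 223 kb under siJunb, and 77.5, 77.5 and 79.0 kb under siH1f0. The 3 siJunb distances were all larger than the 5 others. That order was seen after the values were known and was not tested.

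Spi1, which encodes the myeloid and lymphoid factor PU.1, had a MEF2C peak in its window in 8 of 8 libraries. Of the 9 regulators, 2 did so, against 24.4% of all protein-coding genes, and the same 2 had one in both siControl libraries, against 39.3%. Peaks covered 1.79% and 10.8% of the window under siControl, 3.11%, 14.8% and 10.9% under siJunb, and 11.3%, 6.46% and 1.61% under siH1f0. The groups overlapped throughout. Peaks touched the body of Spi1 in 6 of 8 libraries. Spi1 and Hnf4a were the 2 of 9 regulators touched in any library, against 61.5% of all protein-coding genes. That share was not matched for gene length. The bodies of Spi1 and Hnf4a were 33.4 and 66.1 kb long, and the untouched ones 1.88 to 9.58 kb, except Pax7 at 96.5 kb.

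Hnf4a, a nuclear receptor that maintains the hepatocyte programme, also had a MEF2C peak in 8 of 8 libraries. Coverage of its window was 0.84% and 4.83% under siControl, 2.15%, 11.3% and 13.2% under siJunb, and 6.4%, 8.88% and 3.36% under siH1f0. Again the groups overlapped, and the highest values came from siJunb replicates 2 and 3. Peaks touched the gene body in 3 of 8 libraries.

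Sox10, needed for neural crest, Schwann cells and oligodendrocytes, had a MEF2C peak in 6 of 8 libraries. Its coverage was 0% and 3.88% under siControl, 1.75%, 13.2% and 4.96% under siJunb, and 2.93%, 5.64% and 0% under siH1f0. Sox10 was the 1 regulator that siControl replicate 2 held and siControl replicate 1 did not, and no peak touched its body in any library.

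Averaged over the 8 libraries, MEF2C coverage ran in the order Spi1 (7.6% ± 5.05, SD, n = 8), Hnf4a (6.37% ± 4.42), Sox10 (4.04% ± 4.24) and Myog (1.42% ± 4.03), with the other 5 genes at 0. Each of these 4 differed from its neighbour in the order by less than the SD between libraries.

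**Figure D2:**
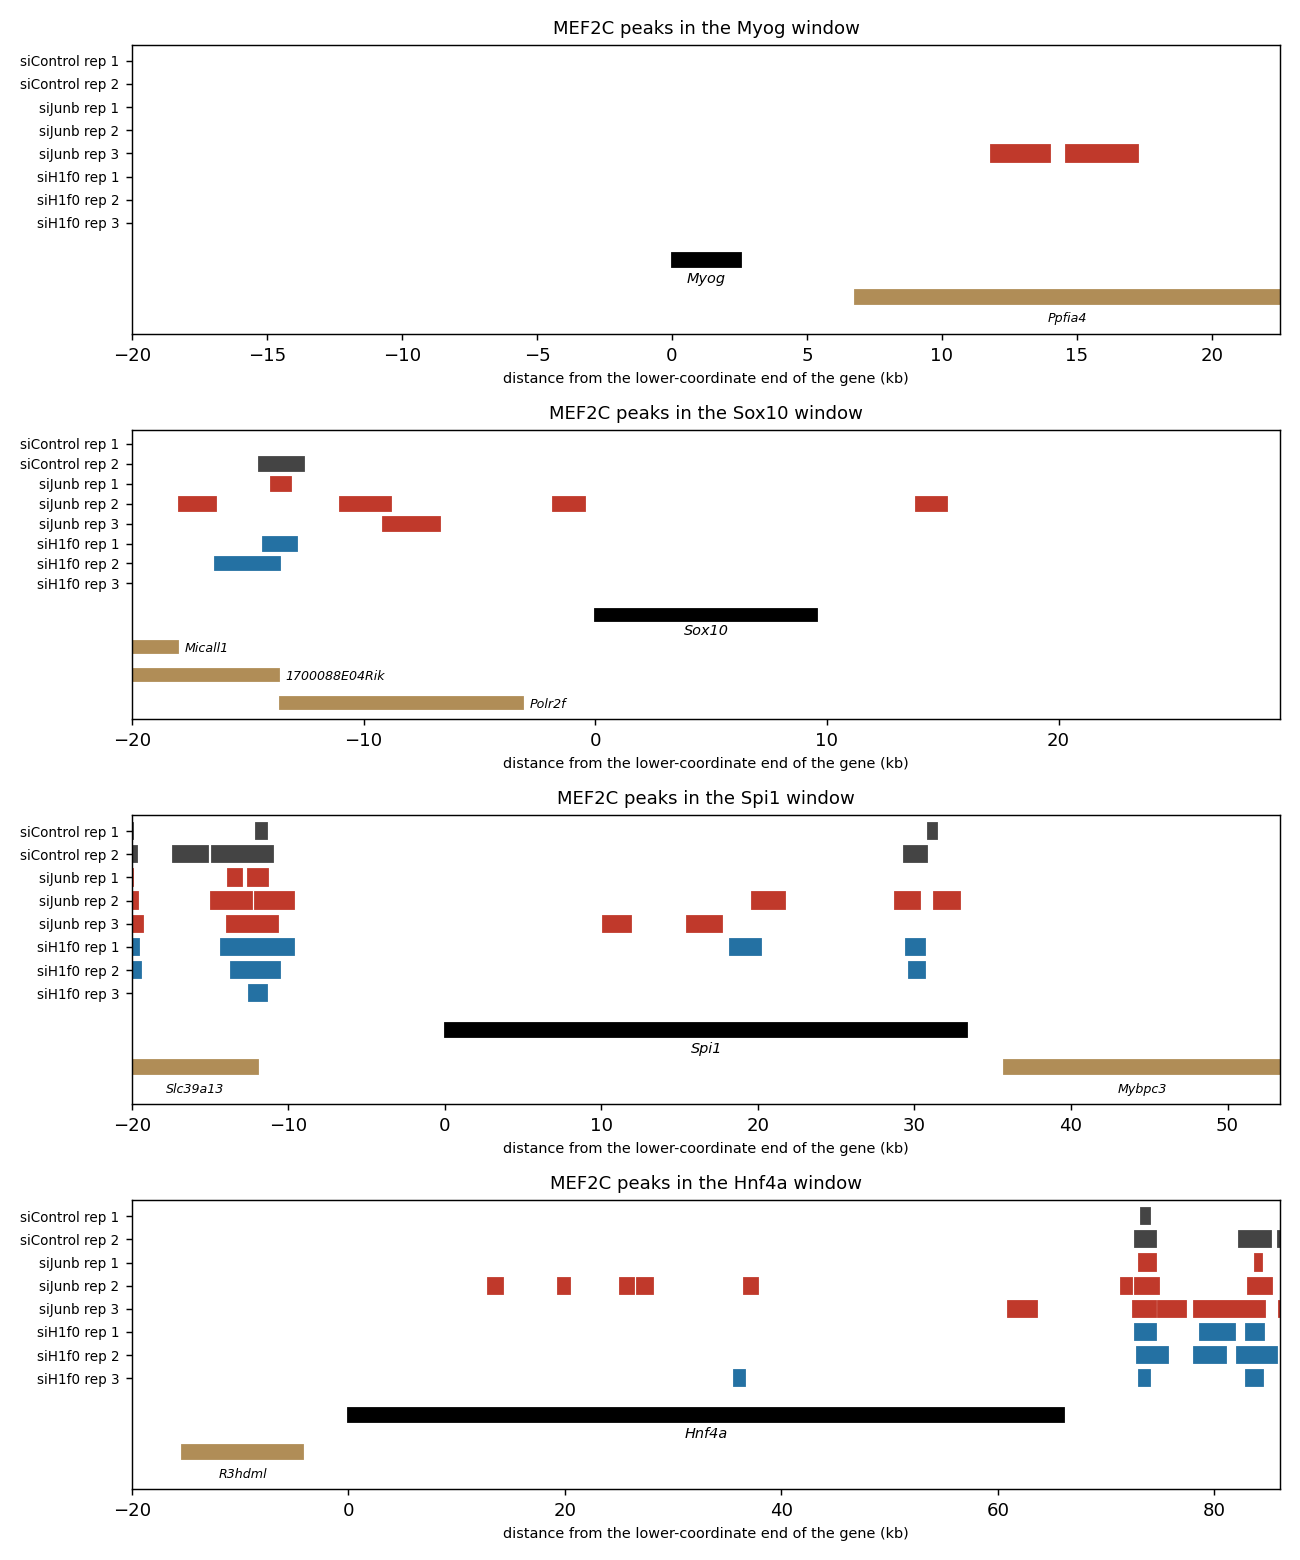
MEF2C peaks (coloured bars, 1 row per library; grey siControl, red siJunb, blue siH1f0) in the windows of Myog, Sox10, Spi1 and Hnf4a, against distance in kb from the lower-coordinate end of the gene. Black bars are the named gene and brown bars are other protein-coding genes. In 8 of 8 libraries a peak lies over the promoter of Slc39a13 in the Spi1 window and beyond the body in the Hnf4a window.

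Merging the 8 MEF2C lists gave 77240 regions, 24 of which reached a window: 10 at Hnf4a, 8 at Spi1, 4 at Sox10 and 2 at Myog. Of the 24, 13 were present in 1 library (54.2%, against 56.4% of all regions), and 11 touched the body of a regulator. In all, 4 of the 24 were present in all 8 libraries, against 5.58% of all regions, a difference that was not tested. Counting only peaks within the windows, 2 of the 24 regions had a peak in all 8 libraries, and neither touched a regulator's body.

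The first of these, at chr2:91067408-91072753, lay 9.62 kb from Spi1 over the annotated starts of Slc39a13, a zinc transporter gene, and of the lncRNA Gm39874, which face away from each other there. Its percentile of total signal within each list ran from 64.3 to 95.9, with a median of 89.8. A region at chr2:91059090-91063052 spanned the ends of Psmc3, a proteasome subunit gene, and Slc39a13, and reached the Spi1 window by 679 bp; it was in all 8 libraries, and its peaks entered the window in 7.

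Inside Spi1, the region at chr2:91111157-91113152 was present in 4 libraries (1 siControl, 1 siJunb and 2 siH1f0), 2.61 kb from the nearer end of the gene. Its median percentile was 12.3, so in most of these lists it was among the weaker peaks. The other 4 regions inside Spi1 were each in 1 or 2 libraries. The strongest and most repeated MEF2C peaks in the window of Spi1 were thus over its neighbours.

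Beyond Hnf4a, the region at chr2:163579242-163584167 was present in 8 of 8 libraries, 6.33 kb from the gene body, which was also the nearest end of a protein-coding gene. Its percentile ran from 90.7 to 96.6 (median 92.7), the narrowest range among regions lying wholly within the windows and present in 4 or more libraries. It was touched by H1.0 in 1 of 4 lists. Next to it, the region at chr2:163584938-163592542 was present in 7 libraries and missing from siControl replicate 1, with percentiles from 28.5 to 97.7. A further region, at chr2:163592709-163608544, spanned an end of Ttpal, a gene for a tocopherol transfer protein-like factor, with percentiles of 96.2 to 99.7; all 8 libraries held it, but it reached the Hnf4a window by 199 bp and peaks of 2 libraries entered.

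Within the body of Hnf4a there were 6 regions, of which 5 were present in 1 library, and siJunb replicate 2 had the most peaks there. The region at chr15:79136944-79142328 near Sox10, 12.6 kb from its body and over the starts of 1700088E04Rik and Polr2f (an RNA polymerase subunit gene), was present in 5 libraries (1 siControl, 2 siJunb and 2 siH1f0). Its percentiles were 12.2 to 64.8, with a median of 32.5, against medians of 89.8 and 92.7 for the 2 regions with a peak in all 8 libraries within the windows at Spi1 and Hnf4a.

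The study's knockdowns ask whether JUNB or H1.0 alters where MEF2C sits. None of the 9 windows was gained or lost under siJunb or siH1f0, where gained means a peak in every knockdown library and in no siControl library, and lost means the reverse. Among all protein-coding genes 0.827% were gained and 1.15% lost under siJunb, and 0.594% and 0.242% under siH1f0. No window was in all siJunb and no siH1f0 libraries (0.425% of genes) or the reverse (0.937%). Without siControl replicate 2, Sox10 would count as gained under siJunb.

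The number of regulators with a MEF2C peak was 2 and 3 under siControl, 3, 3 and 4 under siJunb, and 3, 3 and 2 under siH1f0. In the same libraries 41.1% and 60.5%, then 36.7%, 64.9% and 52.3%, then 54.9%, 62.6% and 45.8% of all protein-coding genes had one. The means were 2.5 ± 0.707 (SD, n = 2), 3.33 ± 0.577 (n = 3) and 2.67 ± 0.577 (n = 3). By exact permutation tests over libraries, two-sided and adjusted over 10 tests, the difference was 0.833 for siJunb minus siControl (p = 0.6, adjusted 0.857). It was 0.167 for siH1f0 minus siControl (exact p = 1, adjusted 1) and 0.667 for siJunb minus siH1f0 (exact p = 0.6, adjusted 0.857).

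MEF2C peaks covered 0.404% and 2.74% of the pooled window sequence under siControl, 0.996%, 5.39% and 5.37% under siJunb, and 3.04%, 3.11% and 0.87% under siH1f0. The siJunb mean was 3.92% ± 2.53 (SD, n = 3), against 1.57% ± 1.65 (n = 2) for siControl and 2.34% ± 1.27 (n = 3) for siH1f0. The difference of 2.35 percentage points between siJunb and siControl had an exact permutation p of 0.4 (adjusted 0.8), and the 1.58 points between siJunb and siH1f0 an exact p of 0.3 (adjusted 0.8). The 0.767 points between siH1f0 and siControl had an exact p of 0.4 (adjusted 0.8). With 3 against 2 libraries no p below 0.2 was possible, and with 3 against 3 none below 0.1, so no such test could pass 0.05.

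List length moved with these values. When the pooled coverage of each library was divided by the mean coverage over the windows of all protein-coding genes in the same library, it was 0.372 and 0.56 under siControl, 0.946, 0.883 and 1.08 under siJunb, and 0.68, 0.487 and 0.532 under siH1f0. On that scale every siJunb library lay above the other 5, and the means were 0.971, 0.466 and 0.566. The exact permutation p was 0.2 for siJunb against siControl and 0.1 for siJunb against siH1f0, each the smallest the design allows, so the order is complete but the test cannot pass 0.05. Other ways of allowing for list length moved the undivided 2.35 and 1.58 points in both directions. With lists cut to equal length, siJunb minus siControl was 1.29 points (exact permutation p = 0.4) and siJunb minus siH1f0 0.523 (exact p = 0.5). Within the series of shorter lists, as the lists are named, the differences were 0.592 and 0.126 points with 1 library a group, and within the other series 2.64 and 2.31. For the 4 non-muscle regulators alone the ratio was 0.605 and 0.995 under siControl, 1.66, 1.61 and 1.47 under siJunb, and 1.16, 0.822 and 0.759 under siH1f0.

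Of the 24 regions, 13 were held by siJunb libraries only (54.2%, against 43.2% of all regions), 1 by siControl only (4.17% against 4.68%) and 0 by siH1f0 only (against 13.5%). Of the 13, 7 were held by siJunb replicate 2 alone (29.2% of the 24, against 28.0% of all regions) and 5 by siJunb replicate 3 alone (20.8% against 9.99%). Regions particular to 1 library thus came largely from siJunb replicates 2 and 3, except 1 at Spi1 from siControl replicate 2. Over all regions, siJunb replicates 2 and 3 also had the largest shares held by a single library.

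**Figure D3:**
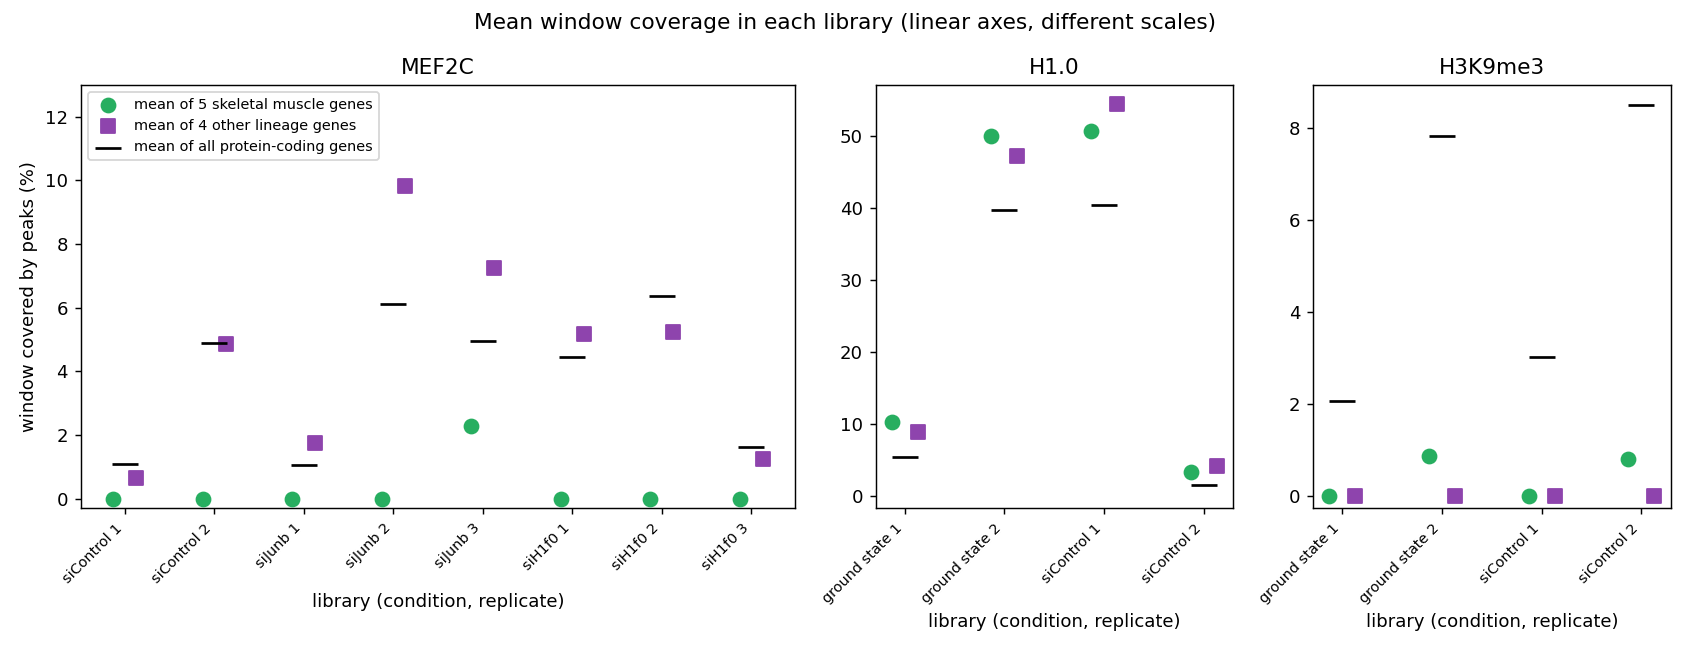
Mean percent of window under peaks for the 5 skeletal muscle regulators (green circles), the 4 regulators of other lineages (purple squares) and all protein-coding genes (black bars), per library, with 1 panel and linear scale per antibody. For MEF2C the skeletal muscle mean is 0 in 7 of 8 libraries, for H1.0 both groups lie above the all-gene mean in 4 of 4 libraries, and for H3K9me3 both lie below it.

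Set side by side, the skeletal muscle group had a mean MEF2C coverage of 0% in 7 libraries and 2.28% in siJunb replicate 3. The other 4 regulators had means of 0.657% to 9.83%, higher than the muscle group in 8 of 8 libraries. The gap, skeletal muscle minus other, averaged -2.76 ± 2.98 percentage points under siControl (SD, n = 2), -5.52 ± 4.07 under siJunb (n = 3) and -3.88 ± 2.29 under siH1f0 (n = 3). By knockdown minus siControl, the gap differed by -2.76 points for siJunb (exact permutation p = 0.4, adjusted 0.8) and -1.12 for siH1f0 (exact p = 0.4, adjusted 0.8), both within the spread between libraries. In the 7 libraries with a muscle mean of 0%, the gap was the mean of the other 4 genes with its sign changed. Comparisons of the gap thus rest mainly on those 4 genes. Divided by the all-gene mean of each library, the gap averaged -1.43 under siJunb and -0.8 under siControl (exact permutation p = 0.2, the smallest the design allows). Neurog2, with 0 throughout, belonged with the muscle genes by this measure.

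H1.0, in contrast, was listed at every regulator. Peaks lay in the window in all 4 H1.0 lists for Myog, Myf6, Pax7, Sox10, Spi1 and Hnf4a, and in 3 of 4 for Myod1, Myf5 and Neurog2. These 6 of 9 compare with 51.8% of all protein-coding genes. List by list, 8 and 9 of the regulators had a peak in the ground state and 9 and 7 at day 1, against 78.8%, 97.5%, 98.3% and 56.8% of all genes.

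H1.0 coverage of the pooled windows was 10.4% and 42.8% in the ground state and 51.6% and 4.32% under day 1 siControl. The means over all genes were 5.43%, 39.8%, 40.5% and 1.59%, so the pooled windows lay above the all-gene mean in 4 of 4 libraries. The day 1 mean was 27.9% ± 33.4 and the ground-state mean 26.6% ± 22.9 (SD, n = 2 each), and the difference of 1.33 points had an exact permutation p of 1 (adjusted 1), and 2 against 2 libraries cannot pass 0.05 in such a test. Replicates within a state differed far more than the states did. The values of 10.4% and 4.32% came from the series of shorter lists, as the lists are named, and the others from the other series. The labels do not say what the series are. The pooled values do not hold for each regulator. Coverage of Neurog2 exceeded that of 36.4% and 36.6% of all genes in the ground state and 43.7% and 0% at day 1. For Myog these shares were 99.5% and 82.8%, then 97.5% and 97.7%.

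Myog had the highest H1.0 coverage in the first ground-state library and in both day 1 libraries, with 35.2% and 63.2% in the ground state and 74.5% and 7.68% at day 1. Spi1 followed a like course, with 27.8% and 51.2%, then 73.4% and 7.66%. Pax7 varied less in the ground state, with 10.2% and 13.1%, and reached 36.1% and 5.2% at day 1.

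The neighbours Myf5 and Myf6 showed how far 2 lists of a state could part. Myf5 was covered at 0% and 74.9% in the ground state and at 54.0% and 2.12% at day 1, and Myf6 at 2.48% and 72.7%, then 44.5% and 2.23%. Myf5 was the lowest of the 9 genes in one ground-state list and the highest in the other, while Myog exceeded Spi1 in 4 of 4 lists. Hnf4a had 1.34% and 60.8% in the ground state.

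The muscle and other groups were close under H1.0. The skeletal muscle mean was 10.4% and 50% in the ground state and 50.8% and 3.44% at day 1, and that of the other 4 genes was 9.01%, 47.3%, 54.5% and 4.2%. The MEF2C gap between the groups therefore had no counterpart of like proportion in H1.0; this difference was not tested.

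All 24 MEF2C regions in the windows were touched by H1.0 in at least 1 list. By list, H1.0 touched 37.5% and 83.3% of them in the ground state and 95.8% and 20.8% at day 1. Over all 77240 regions the shares were 20.2%, 79.9%, 88.4% and 9.86%.

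H3K9me3 was nearly missing. In 8 of 9 windows no list held a peak, against 40.1% of all protein-coding genes, and no window held one in all 4 lists, against 28.2%. List by list, 0 and 1 of the regulators had a peak in the ground state and 0 and 1 at day 1, against 30.0%, 56.6%, 43.9% and 49.7% of all genes. These shares of all genes were not matched for window length. The exception was Pax7, which had the longest window (136.5 kb). It was covered over 0% and 4.43% of the window in the ground state and 0% and 4.08% at day 1. In ground-state replicate 2 a peak at chr4:139726781-139731098 lay 5.96 kb outside the gene at the 72.1st percentile of its list, and a weaker one at chr4:139747772-139749496 lay inside Pax7. At day 1, replicate 2 had 1 peak, at chr4:139726241-139731806, which overlaps the first of these positions, at the 55.4th percentile.

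H3K9me3 covered 0% and 1.11% of the pooled windows in the ground state and 0% and 1.02% at day 1. Over all genes the means were 2.08%, 7.83%, 3.04% and 8.52%, and the medians 0%, 2.33%, 0% and 0%. Except in ground-state replicate 2, the median gene was thus also at 0%. The pooled-window means of 0.554% ± 0.783 and 0.51% ± 0.722 (SD, n = 2 each) differed by -0.0437 points, day 1 minus ground state (exact permutation p = 1, adjusted 1). None of the 24 MEF2C regions was touched by H3K9me3 in any list, where 4.55% to 11.8% of all regions were. All 24 lay at Myog, Sox10, Spi1 and Hnf4a, whose windows held no H3K9me3 peak, so this largely repeats the window result.

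The wider gene programmes were read with lists of other genes of each lineage. Among 18 further skeletal muscle genes, 6 had no MEF2C peak in any library and 0 had one in all 8, against 22.6% and 24.4% of all genes. Those without a peak included Cav3 (muscle caveolin), Ckm (muscle creatine kinase), Eya1 and Lbx1 (regulators of muscle precursors). Met and Acta1, the receptor that guides migrating muscle precursors and skeletal actin, had a peak in 7 of 8 libraries each.

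Among 18 neural and neural crest genes, 8 had none (44.4%, against 22.6% of all genes), including Dcx, Foxd3, Neurod1 and Neurog1. Another 4 had a peak in all 8 libraries (22.2%, against 24.4%). They included Erbb3 (a neuregulin receptor of glia), Mitf (the melanocyte factor) and Dll1 (a Notch ligand), with a median coverage over 8 libraries of 12.9%, 6.96% and 4.69%. So Neurog2 and the proneural genes Neurog1 and Neurod1 were empty, and Erbb3 was, like Sox10, covered in most libraries.

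Of 16 blood genes, 2 had no MEF2C peak (Pax5 and Tal1, of B cells and of haematopoietic stem cells), or 12.5% against 22.6% of all genes. A peak in all 8 libraries was found for 4 (25.0%, against 24.4%). These were Runx1 (13.0% median coverage), Cd68 (8.73%), Cebpa (3.73%) and Itgam (3.04%). Lmo2, a partner of TAL1, had a peak in 3 of 3 siJunb libraries and in 0 of the 5 others. Ptprc, which encodes CD45, had one in both siControl libraries, in none of the siJunb libraries and in 2 siH1f0 libraries. Under siJunb 0.827% of all genes were gained as Lmo2 was and 1.15% lost as Ptprc was.

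Of 16 liver genes, 3 had no MEF2C peak (Cyp7a1, the first enzyme of bile acid synthesis, Foxa1, a pioneer factor, and Serpina1a). Nr1i3 and Nr1h4, nuclear receptors for xenobiotics and bile acids, had one in all 8 libraries, with a median coverage of 12.1% and 5.25%. Liver genes without a peak were 18.8% of the list, against 22.6% of all genes. Those with one in all 8 were 12.5%, against 24.4%.

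Cardiac and mesenchymal factors gave a comparison with lineages nearer to these cells. Of 13 cardiac factors, 1 (Isl1) had no peak and 3 (Mef2d, Srf and Zfpm2) had one in all 8 libraries. Of 13 mesenchymal factors, 2 (Meox2 and Tcf21) had none and 5 (Zeb2, Twist2, Prrx1, Snai2 and Zeb1) had one in all 8. In that order of lists, shares without a peak were 7.69% and 15.4%, against 22.6% of all genes. Shares with one in all 8 were 23.1% and 38.5%, against 24.4%. Twist1 was lost under siJunb, as 1.15% of all genes were. It had a peak in both siControl libraries, no siJunb library and 2 siH1f0 libraries. These lists were chosen with earlier results known, and no list was tested against another.

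**Figure D4:**
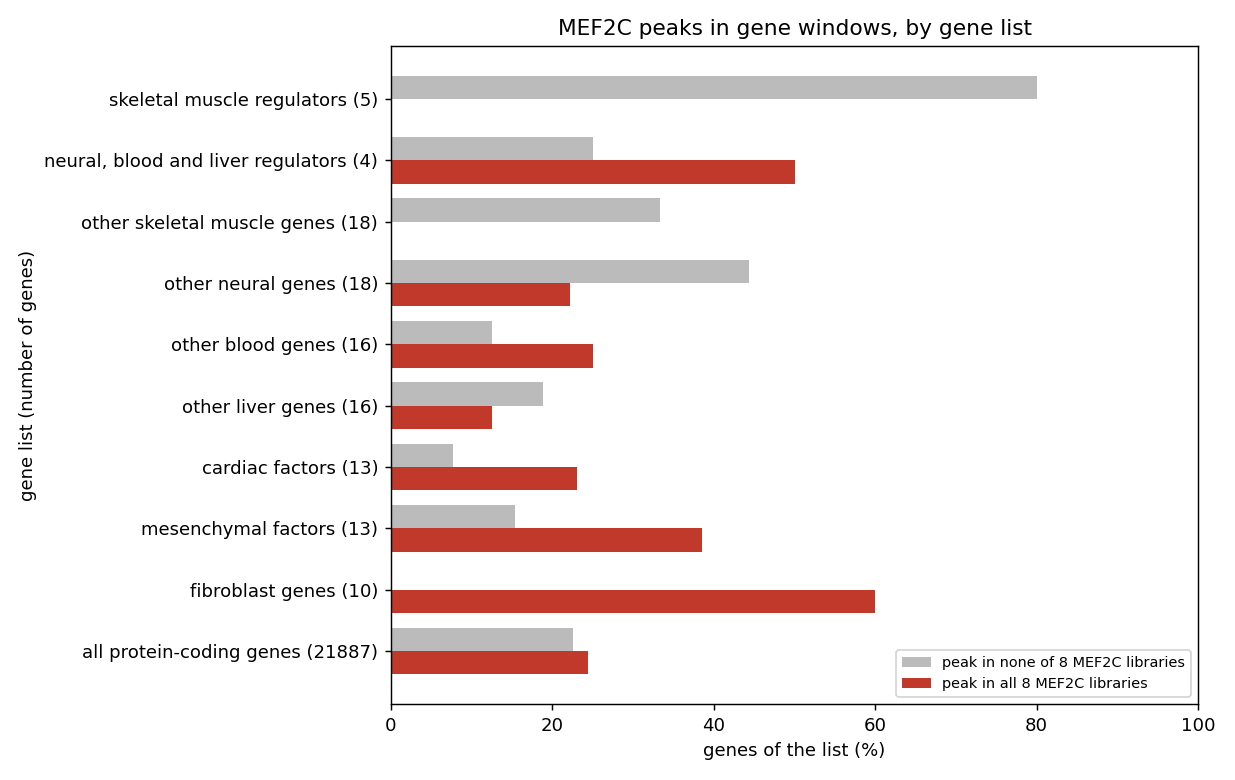
Percent of the genes of each list with a MEF2C peak in the window in none of 8 libraries (grey) or in all 8 (red), with the number of genes in brackets. Among the skeletal muscle regulators 80.0% had no peak and no gene had one in all 8, while all protein-coding genes stand at 22.6% and 24.4%.

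H3K9me3 was absent from the window in all 4 lists for 7 of 18 other skeletal muscle genes, 11 of 18 neural, 7 of 16 blood and 12 of 16 liver genes, against 40.1% of all protein-coding genes. In the muscle list Msc, an inhibitor of myogenic bHLH factors, reached 72.5% coverage in 1 list and Eya1 35.4%. The 4 MyoD family genes were at 0% in 4 of 4 lists.

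By the mean absolute difference in percent covered over the 16 libraries, the nearest of the 104 genes on the other lists that were compared was Pax5 for Neurog2 (0.537 points) and Myod1 (0.941), Myt1l for Myf5 (0.56), Dcx for Myf6 (0.582) and Lbx1 for Pax7 (2.12). It was Nr1h4 for Hnf4a (2.27 points), Sox8 for Myog (3.04) and Des for Spi1 (3.76). For a typical gene on those lists the difference was 4.37 to 8.24 points, and all genes of a library share its list. Percent covered was not scaled by antibody. Pooled coverage of the regulators' windows reached 51.6% for H1.0, 5.39% for MEF2C and 1.11% for H3K9me3, so H1.0 can weigh most in this measure.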

How the data were processed

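The 16 deposited peak lists hold, per the submitters' processing notes, the output of Bowtie2 and SEACR on mm10; versions, duplicate handling and the use of the 8 IgG samples, not analysed here, were not given in the sources used here. The deposited values are signal, that is a sum and a maximum of coverage for each peak, and were ranked within a list only. Positions came from RefSeq on GRCm38.p6. A gene counted as covered when a peak overlapped its window by 1 bp or more, and overlapping MEF2C peaks were merged into regions. Exact permutation tests over libraries were two-sided, adjusted by Benjamini-Hochberg, with 0.05 as threshold (Python 3.11.15, pandas 2.3.3, scipy 1.17.1), and the code was tested on simulated data. The members and lists were chosen with earlier results of these data known. Named were all 9 members, regions in 4 or more libraries (otherwise the most shared one), list genes gained or lost, up to 6 in all 8 libraries and up to 4 in none, and the nearest gene by profile; 1 list gene is not reported here. Other genes named (Met, Acta1, Msc) and the regions in fewer libraries were chosen after their values were seen. Alternatives were windows of 5 and 50 kb, peaks above the 50th percentile of signal, equal list lengths, division by all genes, omission of each library, a replicate block and the 2 naming series of the lists.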

Additional observations from a re-analysis of the deposited data

How the results depend on the processing

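Of 161 alternative values, 138 kept their direction and side of the threshold, 15 reversed and 8 moved; no comparison passed 0.05 in any of them, and the designs could not have passed it, so this says nothing about stability. The difference in regulators with a MEF2C peak for siH1f0 minus siControl was 0 with 5 kb flanks, -1.33 with 50 kb flanks, 0 at equal list lengths, -0.00402 after division by all genes, and 0 within each naming series; for siJunb minus siControl it was -0.667 with 50 kb flanks. The H3K9me3 difference, day 1 minus ground state, was 0.0178 points with 50 kb flanks, 0.114 for peaks above the 50th percentile of signal, 0.114 at equal list lengths and 0 within the first naming series. The H1.0 difference was -1.78 points at equal list lengths, -6.09 within the first naming series and 8.75 within the second. The cause was not tested. Lists of the first naming series (siControl and siJunb replicate 1, siH1f0 replicate 3) held 14928, 11731 and 17871 MEF2C peaks.

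With 1 library left out at a time, the siH1f0 minus siControl difference ran from -0.333 to 0.667 regulators (below 0 without siControl replicate 1, 0 without siH1f0 replicate 1 or 2), from -0.401 to 1.93 points of pooled coverage and from -3.23 to 0.983 points for skeletal muscle minus other, the reversals both without siControl replicate 1. The H1.0 difference ran from -22.3 (without day 1 replicate 1; -14.9 without ground-state replicate 1) to 25.0 points, and the H3K9me3 difference from -0.598 to 0.51 (0.467 without day 1 replicate 1, 0.51 without ground-state replicate 2). Windows gained or lost under siJunb ran from 0 to 1, the 1 being Sox10 without siControl replicate 2. For siJunb minus siControl, coverage ran from 1.18 (without siControl replicate 1) to 3.81 points (without siJunb replicate 1), the muscle gap from -4.86 (without siControl replicate 2) to -0.602 (without siJunb replicate 2), and the number of regulators reached 1.33 (without siControl replicate 2) and was lowest, still above 0, without siControl replicate 1. For siJunb minus siH1f0, coverage ran from 0.842 (without siJunb replicate 2) to 3.04 points (without siJunb replicate 1), and the number of regulators reached 0.833 and was lowest, still above 0, without siJunb replicate 3 or siH1f0 replicate 3. Where an arm kept 1 library, the labels were permuted over the libraries left.

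Replicate numbers are shared between groups, but the labels do not say what they mark, and same-numbered libraries did not deviate together throughout (correlations across 21887 genes from -0.332 to 0.578). With a replicate block the siJunb minus siControl difference was 0.5 regulators, 1.62 points of coverage and -3.03 points for the muscle gap; siH1f0 minus siControl was 0.5, 1.5 and -2.44; siJunb minus siH1f0 was 0.667 and 1.58; H1.0 was 1.33 and H3K9me3 -0.0437 points, and no call changed. Pairing the H1.0 numbers crosswise, chosen after seeing the data because their correlation was -0.332, gave 0 calls as well.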
